A study of Mus musculus with 2 samples.

Results

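Histone genes were taken from the array design by name, as every gene whose name begins with Hist and a cluster number, H2af, H3f3 or H1f. The rule found 64 of the 28233 named genes, represented by 77 probes, and no measured value entered it. Of the 64, 48 were clustered Hist genes, 35 of them in Hist1 (chromosome 13), 9 in Hist2 (chromosome 3), 3 in Hist3 (chromosome 11) and 1 in Hist4 (chromosome 6). The other 16 were variant genes, which lie outside the clusters or carry other names. All values came from 1 line of immortalized Murine Embryonic Fibroblasts (MEF) on the background C57BL/6 x B6:129 Ola, which carries Rosa26ERT2 Cre: THOC5 (flox/flox). Control cells, labelled wildtype, had the same genotype and received no tamoxifen, and THOC5 knockdown cells were pre-treated with tamoxifen for 2 days, so that the drug and the loss of THOC5 cannot be told apart. Each condition was hybridised to 1 dual-color array, with RNA of serum-starved, unstimulated cells in the Cy3 channel and RNA of cells after 1 h of fetal calf serum (FCS) in the Cy5 channel. With 1 array per condition and no exchange of dyes, no difference given here has a replicate check, and no test was made.

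Core histones H2A, H2B, H3 and H4 form the protein spool of the nucleosome, and linker histone H1 binds the DNA between nucleosomes. Most of the clustered genes are replication-dependent: they have no introns, are transcribed mainly in S phase, and give the only messenger RNAs of animal cells that end in a conserved stem-loop in place of a poly(A) tail. Their 3′ end is cut by CPSF73, CPSF100 and symplekin together with the U7 snRNP and the stem-loop binding protein. The variant genes, such as those of H2A.Z and H3.3, are mostly expressed throughout the cell cycle from polyadenylated messenger RNAs. The H2A.X gene is known to give both a short stem-loop RNA and a longer polyadenylated one. THOC5 is a subunit of the THO complex, which couples transcription to export of messenger RNA. The Quick Amp kit named in the labels primes at poly(A) tails, and how far this lowered the signal of tailless histone RNA was not tested.

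The labels held for the targeted gene. The processed signal of Thoc5 was 4808 and 3047 on the control array (unstimulated and serum) and 545.6 and 455.1 on the knockdown array, a level difference of -2.83 and -2.43 on the log2 scale. All 8 fibroblast markers were well above background in the 4 channels. So were 2 of 4 epithelial markers, 0 of 2 blood markers, both of the 2 endothelial markers and 1 of 4 germ cell markers. In unstimulated THOC5-depleted cells 2 of the 8 fibroblast markers were lower by 1.5-fold or more, Pdgfra at -1.27 and Col3a1 at -1.13, against 5.06% of all genes. After serum they differed by -0.39 and -0.74, and their serum ratios on the control array were -1.06 and -0.67. Of the endothelial markers, Cdh5 differed by -0.83 and -1.12, from signals of 21.1 to 50.7, and Pecam1 by 0.03 and -0.05. Of the epithelial keratins, Krt8 differed by 0.04 and -0.91 and Krt18 by 0.14 and -0.18. Some markers that missed the 4-channel filter also had unequal signals. Epcam had 32.1 and 32.6 on the control array and 5.3 and 6.4 on the knockdown array, while the epithelial marker Cdh1 had 3.2 and 3.2 against 3.0 and 2.8. The germ cell markers did not all go the same way. Ddx4 had 32.5 and 22.9 against 6.7 and 9.2, Dazl 2.8 and 3.6 against 6.5 and 10.8, and Sycp3 3.5 and 3.6 against 2.4 and 4.3. Tnp1, which passed the filter, differed by -0.04 and -0.17. Of the blood markers, Cd68 had 11.6 against 24.6 in unstimulated cells and Ptprc 9.5 against 14.4. Their part in the histone levels was not tested. Replicate spots of a probe had a median SD of 0.028 and 0.031 in the log2 ratio, which is technical error only. Spike-in probes, which were added in set amounts, gave a log2 ratio that was 0.24 higher on the knockdown array than on the control array. Its part in differences between the serum ratios of both arrays was not tested.

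Several H2A genes could not be measured apart, because their 60-base probes lie on nearly the same coding sequence. The probes of 8 genes, 7 clustered and the variant H2afj, were linked by shared runs of 25 bases or more. They are printed here because their values move as 1 measurement. Capitals mark bases equal to the Hist1h2ah probe in an alignment without gaps, over which 40 to 51 bases of the other probes matched. Coordinates are those of the array design (mm9).

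Hist1h2ah, chr13:22127035-22127094, minus strand: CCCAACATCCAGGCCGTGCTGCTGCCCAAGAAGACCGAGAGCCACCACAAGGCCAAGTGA
Hist1h2af, chr13:23626113-23626172, plus strand: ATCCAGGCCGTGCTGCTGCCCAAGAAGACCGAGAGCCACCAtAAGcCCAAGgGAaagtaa
Hist1h2ak, chr13:21845304-21845363, minus strand: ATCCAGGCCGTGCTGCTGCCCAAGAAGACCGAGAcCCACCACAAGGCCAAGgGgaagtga
Hist1h2an, chr13:21878695-21878754, minus strand: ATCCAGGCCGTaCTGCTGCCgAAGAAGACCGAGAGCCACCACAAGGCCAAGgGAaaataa
Hist1h2ag, chromosome 13: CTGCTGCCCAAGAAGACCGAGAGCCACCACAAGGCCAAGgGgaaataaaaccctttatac
Hist2h2aa2, chr3:96049837-96049896, plus strand: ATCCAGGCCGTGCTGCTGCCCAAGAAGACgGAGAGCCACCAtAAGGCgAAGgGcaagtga
Hist2h2ac, chr3:96024378-96024437, minus strand: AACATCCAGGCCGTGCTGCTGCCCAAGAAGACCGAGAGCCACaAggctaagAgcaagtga
H2afj, chr6:136757181-136757240, plus strand: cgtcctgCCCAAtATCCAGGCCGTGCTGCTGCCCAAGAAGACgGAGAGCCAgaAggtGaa

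A second set of probes reaches the end of the messenger RNA. A hairpin with a 6-base stem and a 4-base loop, searched as GGCTCTNNNNAGAGCC (the same on both strands), was found in 5 of all 39429 probes, 0.0127%, and each of the 5 belongs to a clustered histone gene. The stretches around it are shown because they tell which probes lie at or past the end that the histone machinery makes; capitals mark the hairpin.

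Hist2h2aa1: taaaaaGGCTCTTTTCAGAGCCacccact
Hist2h2bb: cccaaaaGGCTCTTTTCAGAGCCacttta
Hist1h3i: aacaaaaGGCTCTTTTCAGAGCCccctc
Hist1h3a: aaccaaaGGCTCTTTTCAGAGCCaca
Hist1h3g: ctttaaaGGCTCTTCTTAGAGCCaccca

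Probes of Hist1h3a, Hist1h3g, Hist1h3i and Hist2h2bb ended 3 to 6 bases after the hairpin. The Hist2h2aa1 probe continued for 38 bases beyond it. A probe of Hist1h2ae began inside the hairpin and ran 48 bases past it, and one of Hist1h2ab stopped within it.

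Of the 64 histone genes, 53 were well above background in all 4 channels, 40 clustered and 13 variant, and these carry the medians and counts given here. A further 6 were above background in 1 to 3 channels and 5 in none. H2B had the most that were not measured throughout, since 7 of its 11 genes passed, against 14 of 15 for H2A, 7 of 8 for H3, 8 of 8 for H4 and 4 of 6 for the clustered H1 genes. Of the variant genes, H1fnt was above background in 1 channel, H2afb2-ps in 2 and H2afb1 in 0. The names of the array design are old: 60 of the 64 were found by accession in RefSeq's GRCm38.p6 annotation, 57 of them under another symbol, such as H2ax for H2afx, H2az1 for H2afz and H2ac12 for Hist1h2ah. The probe read for H2afb3-ps lies on chromosome 17 while its other probe lies on the X chromosome, and that of H2afb1 is H2al2a in RefSeq.

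After 1 h of serum, few histone genes differed by 1.5-fold or more from unstimulated cells, and none of the 53 measured was higher by that much on either array. On the control array 2 of 53 were lower, Hist3h2a and Hist1h2an, against 5.49% of the 17199 genes above background, and 0 were higher, against 6.22%. On the knockdown array 0 were lower and 0 higher, against 1.06% and 2.84%. The median log2 serum ratio of the 40 clustered genes was -0.03 on the control array and 0.04 on the knockdown array. For the 13 variant genes it was -0.10 and -0.06, and for all genes -0.02 and -0.01.

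**Figure D1:**
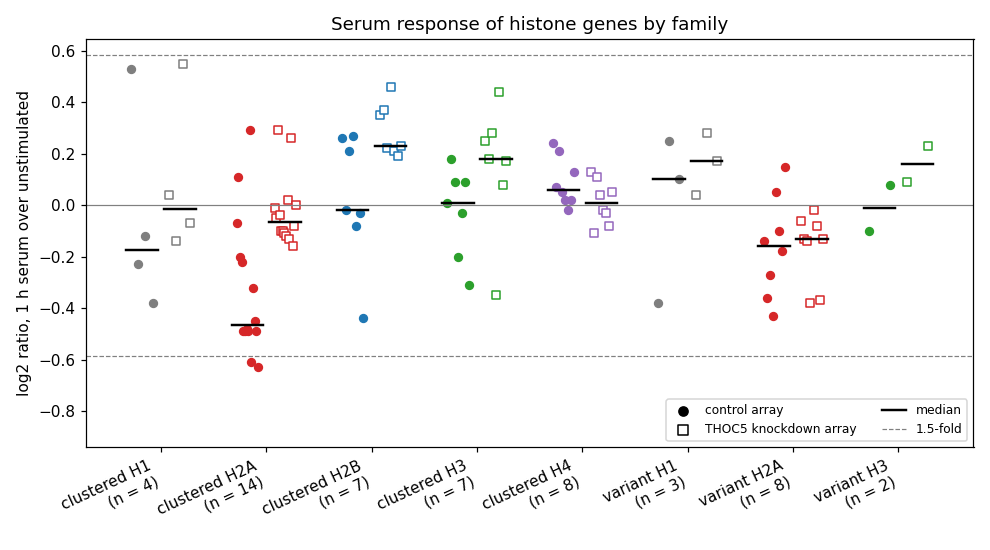
Log2 ratio of the processed signal after 1 h of serum over unstimulated cells, 1 point per gene well above background in the 4 channels, by histone family and class. Filled points are the control array and open squares the knockdown array, black bars are medians and dashed lines mark 1.5-fold; the clustered H2A genes have medians of -0.47 and -0.06.

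The families did not share 1 direction. Clustered H2A genes had the lowest median of the clustered families on the control array, -0.47, with 12 of 14 below 0, and -0.06 on the knockdown array. Of all 17199 genes, 9167 were below 0 on the control array. The H2A median of -0.47 rests on the probes printed above. Hist1h2ah, the brightest H2A of Hist1, gave processed signals of 47990 and 34338 on the control array (unstimulated, then serum) and 35417 and 32888 on the knockdown array. Its signal was 1.40-fold lower after serum on the control array, a log2 ratio of -0.48, and its ratio on the knockdown array was -0.11. Hist2h2ac, the brightest H2A of Hist2, gave 41068 and 29178, then 29621 and 27969, with ratios of -0.49 and -0.08. Over the 8 genes of the linked probes the control array gave ratios of -0.61 (Hist1h2an) to -0.36 (H2afj) and the knockdown array ratios of -0.16 to -0.08. These are not 8 independent observations, and their spread is not a spread between replicates. The spike-in ratio was 0.24 higher on the knockdown array, and its part in this difference was not tested. A second pair of linked probes, of Hist1h3c and Hist1h3f, shares a run of 36 bases. A second probe of Hist1h2ak at the start of its transcript is not one of those printed, and it gave -0.35 and 0.03. A second probe of H2afj, far downstream at base 1664, gave 0.30 and 0.14, opposite in sign to the probe that shares sequence with the clustered genes.

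Outside the linked probes, Hist3h2a, the only measured gene of the Hist3 cluster, had signals of 829.8 and 536.5 on the control array and 342.7 and 342.9 on the knockdown array. Its control ratio of -0.63 was the lowest of the measured clustered core genes, and its knockdown ratio was 0.00. The highest control ratios among the core genes were 0.29 for Hist1h2al, whose signals of 11.6 to 15.8 lie at the limit of detection, 0.27 for Hist1h2bm and 0.26 for Hist1h2ba, a testis-type H2B. Without the linked probes, the 33 remaining clustered genes had medians of 0.01 and 0.11.

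H2B genes had a median of -0.02 on the control array. On the knockdown array it was 0.23, with 7 of 7 above 0, against 8152 of all 17199 genes. Among the 7, Hist1h2bp, Hist2h2bb and Hist2h2be were dim, with signals of 17.9 to 33.9. The spike-in ratio was 0.24 higher on the knockdown array, and its part in the H2B values was not tested. Hist1h2bc, the brightest H2B of Hist1, gave 6103 and 6019 on the control array and 5031 and 6504 on the knockdown array. The control pair of signals was nearly equal, with a log2 ratio of -0.02, and the knockdown pair gave 0.37. Hist1h2bm gave 1610 and 1943, then 1434 and 1977, so serum was the higher channel on both arrays, with ratios of 0.27 and 0.46.

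H3 genes had a median of 0.01 on the control array and 0.18 on the knockdown array. There 6 of 7 were above 0, against 8152 of all 17199 genes. Hist1h3d, the brightest H3 of Hist1, was the same on both, with ratios of 0.18 and 0.18 from signals of 19545, 22137, 17733 and 20126. Hist1h3i, read at its hairpin, had ratios of -0.03 and 0.44 from signals of 31.2 to 34.4 in 3 channels and 23.0 in unstimulated knockdown cells. Hist1h3g, also read at its hairpin, had the lowest knockdown ratio of the core genes, -0.35, and -0.20 on the control array. Hist2h3c1, the brightest H3 of Hist2, gave 0.09 and 0.08.

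H4 genes had the narrowest range of the clustered families on both arrays. Their 8 ratios lay between -0.02 and 0.24 on the control array and between -0.11 and 0.13 on the knockdown array, with medians of 0.06 and 0.01. Hist1h4k, Hist2h4 and Hist4h4, the brightest of their clusters, gave -0.02, 0.02 and 0.13 on the control array and -0.03, -0.08 and 0.05 on the knockdown array.

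Linker H1 genes pack nucleosomes into denser fibres, and H1f0 is the form best known from non-dividing cells. Hist1h1c had signals of 2195 and 2026 on the control array and 1377 and 2011 on the knockdown array. The unstimulated knockdown signal was the lowest of the 4, and the serum ratio was -0.12 on the control array and 0.55, or 1.46-fold, on the knockdown array. Hist1h1e gave 565.3 and 434.7, then 568.1 and 541.2, with ratios of -0.38 and -0.07. Hist1h1b had ratios of -0.23 and -0.14, and Hist1h1a of 0.53 and 0.04 from signals of 60.2 to 86.8. Of the replacement-type linker genes, H1f0 gave -0.38 and 0.04, H1fx 0.10 and 0.17, and the oocyte form H1foo 0.25 and 0.28.

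Among the 8 variant H2A genes, read by their brightest probes, all were below 0 on the knockdown array and 6 on the control array. Of all 17199 genes, 9047 and 9167 were. The 8 include H2afj, read on the linked sequence, and H2afb3-ps, read on chromosome 17. On the knockdown array the second probe of H2afj gave 0.14, and the other probes of H2afy -0.19 and 0.14. The second probes of H2afv, H2afz and H2afb3-ps gave 0.00, -0.08 and -0.03. H2afx encodes H2A.X, which is phosphorylated around DNA breaks, and its probe starts at base 1235 of the transcript. Its signals were 10690 and 7925 on the control array and 4934 and 3791 on the knockdown array. Serum was the lower channel on both, with nearly equal ratios of -0.43 and -0.38. H2afz encodes H2A.Z, a variant found next to active promoters, and gave 63284 and 70360 on the control array and 60744 and 55414 on the knockdown array, with ratios of 0.15 and -0.13. Its second probe gave 0.21 and -0.08, the same signs. H2afv, which encodes the other H2A.Z protein, gave -0.27 and -0.14. The macroH2A genes H2afy, H2afy2 and H2afy3, which encode H2A with a large added domain, gave 0.05, -0.10 and -0.18 on the control array and -0.02, -0.08 and -0.37 on the knockdown array. H2afb3-ps gave -0.14 and -0.06.

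H3.3, the H3 variant placed outside S phase, is encoded by H3f3a and H3f3b. H3f3a gave 34170 and 31776 on the control array and 24563 and 26224 on the knockdown array, with ratios of -0.10 and 0.09. H3f3b gave 29242 and 30920, then 24468 and 28696, with ratios of 0.08 and 0.23. Its other probes, further downstream, gave 0.27 and 0.13 on the control array and 0.41 and 0.49 on the knockdown array, so the sign was shared by all 3 of its probes and the size was not.

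**Figure D2:**
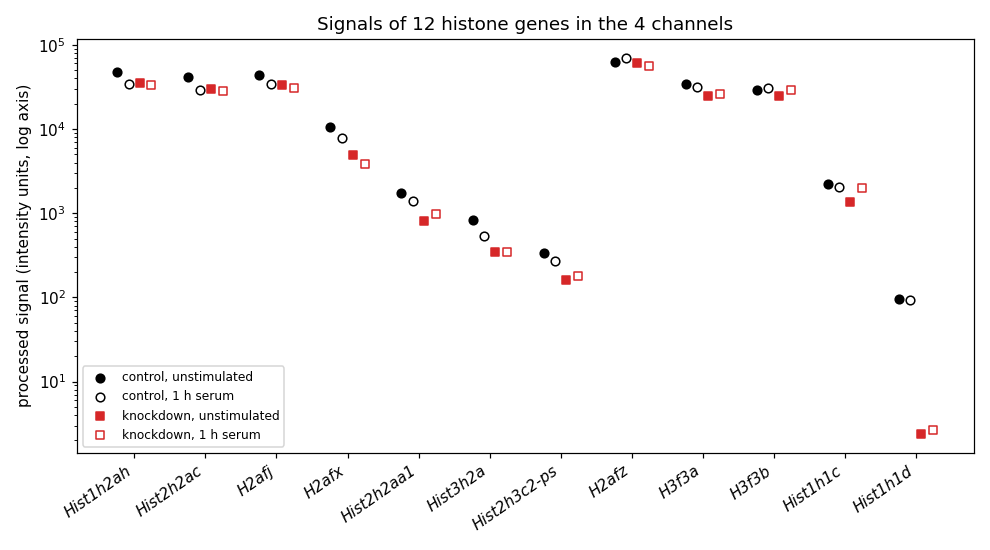
Processed signals (intensity units, log axis) of 12 histone genes in the 4 channels: circles are the control array, squares the knockdown array, filled marks unstimulated cells and open marks 1 h of serum. Signals are not scaled between arrays and heights of different genes are not comparable; Hist1h1d lies at 95.7 and 93.0 on the control array and at 2.4 and 2.7 on the knockdown array.

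Levels were compared between THOC5-depleted and control cells within each channel, after scaling the mean signals of both arrays to each other. A level difference is the log2 level on the knockdown array minus that on the control array. It and the serum ratios are built from the same 4 signals and are not independent. In unstimulated cells 5 of the 53 histone genes were lower by 1.5-fold or more and 1 was higher, against 5.06% and 4.64% of all genes. After serum 1 was lower and 2 were higher, against 5.36% and 5.92%. The median difference of the clustered genes was -0.05 in unstimulated cells and 0.11 after serum, that of the variant genes -0.13 and -0.06, and that of all genes 0.00 in both. The lower genes in unstimulated cells were Hist3h2a, Hist2h3c2-ps, H2afx, Hist2h2aa1 and H1f0.

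**Figure D3:**
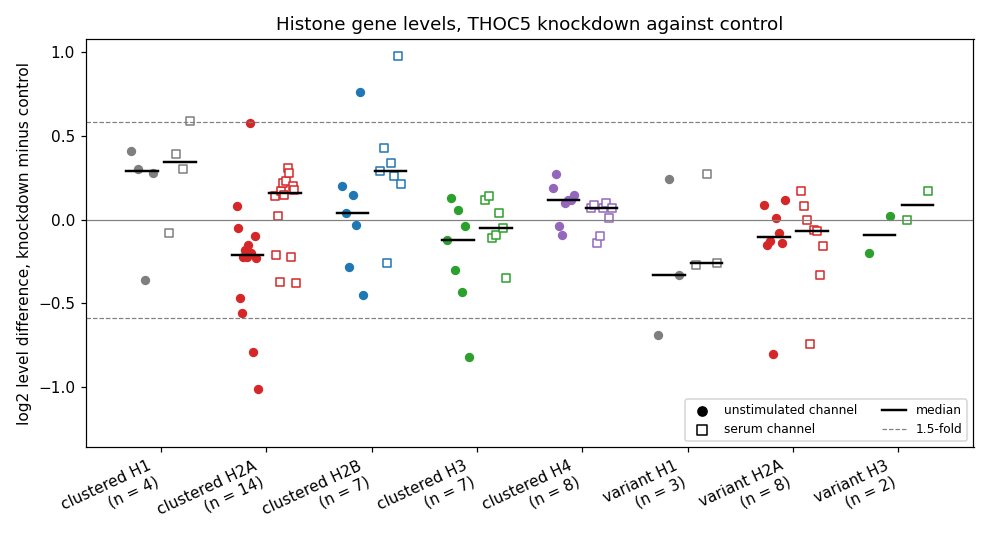
Log2 level on the THOC5 knockdown array minus that on the control array after scaling, 1 point per gene well above background in the 4 channels, by family and class. Filled points are unstimulated cells and open squares cells after 1 h of serum, bars are medians and dashed lines mark 1.5-fold; H2afx, in the variant H2A group, is past the lower line in both channels (-0.80 and -0.74).

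H2afx was the 1 histone gene measured in all 4 channels that was lower past the limit in both channels. Its level in THOC5-depleted cells was 1.74-fold lower unstimulated and 1.68-fold lower after serum, a difference of -0.80 and -0.74. Under 75th-percentile scaling, a floor of 50 and normexp with loess it stayed between -0.83 and -0.70. None of the other measured H2A variants was past the limit: H2afz gave 0.12 and -0.16, H2afv -0.13 and 0.00, H2afj -0.15 and 0.08, H2afy 0.01 and -0.06, H2afy2 -0.08 and -0.07, H2afy3 -0.14 and -0.33, and H2afb3-ps 0.09 and 0.17. Other probes of some genes gave other values. The downstream probe of H2afj gave -0.12 and -0.28, whose sign after serum is opposite. The dim probe of H2afb3-ps on the X chromosome gave -0.42 and -0.46, from signals of 15.9 to 24.2. The other probes of H2afy gave 0.22 and -0.03, and -0.24 and -0.14. Second probes of H2afz and H2afv gave 0.12 and -0.17, and -0.18 and 0.09. H3f3a differed by -0.20 and 0.00 and H3f3b by 0.02 and 0.17. The second probe of H3f3a gave -0.21 and -0.04. The other probes of H3f3b gave -0.02 and 0.12, and -0.29 and 0.07.

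Hist3h2a had 0.497 times its control level in unstimulated THOC5-depleted cells and 0.769 times after serum, a difference of -1.01 and -0.38. Hist2h3c2-ps, named as a pseudogene in the design, was 1.77-fold lower and 1.27-fold lower, from signals of 335.4 and 271.4 on the control array and 161.6 and 182.0 on the knockdown array. Hist2h2aa1 was 1.73-fold lower and 1.16-fold lower, from 1724 and 1385 on the control array and 808.4 and 966.6 on the knockdown array. These 3 genes were taken as past the limit in the unstimulated channel and not after serum. Their larger unstimulated difference therefore follows from the choice.

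Hist2h2aa1 and Hist2h2aa2 were read 112 bases apart on the same strand of chromosome 3. The Hist2h2aa2 probe, in the coding sequence shared by the family, gave a level difference of -0.10 in unstimulated cells and 0.20 after serum. The Hist2h2aa1 probe, which runs past the hairpin, gave -0.79 and -0.22. Its stretch is chr3:96049949-96050008, plus strand.

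The clustered core genes were therefore also ordered by the place of their probe, with a split at base 420 of the transcript that was drawn after the values were seen. Of the 22 measured genes with a probe that starts before base 420, in or next to the coding sequence, 11 were below 0 and 11 above 0 in unstimulated cells, with a median of 0.02. Of the 11 below 0, 7 are the linked H2A genes, which count as 1 measurement; the other 15 early genes had 4 below 0 and 11 above, with a median of 0.12. Of the 14 measured genes with a probe that starts later, 11 were below 0 and the median was -0.35. Of all 17199 genes, 8675 were below 0 in unstimulated cells. After serum the medians were 0.14 for the early and -0.09 for the late probes; the early median was 0.09 without the linked H2A genes, and with signals of 100 or more the medians were 0.15 and -0.22, with 6 of the 7 late genes below 0. On the serum ratio the medians of early and late probes were 0.02 and -0.14 on the control array and -0.01 and 0.20 on the knockdown array. Without the linked H2A genes the early medians were 0.09 and 0.08, and with signals of 100 or more the late medians were -0.02 and 0.17.

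**Figure D4:**
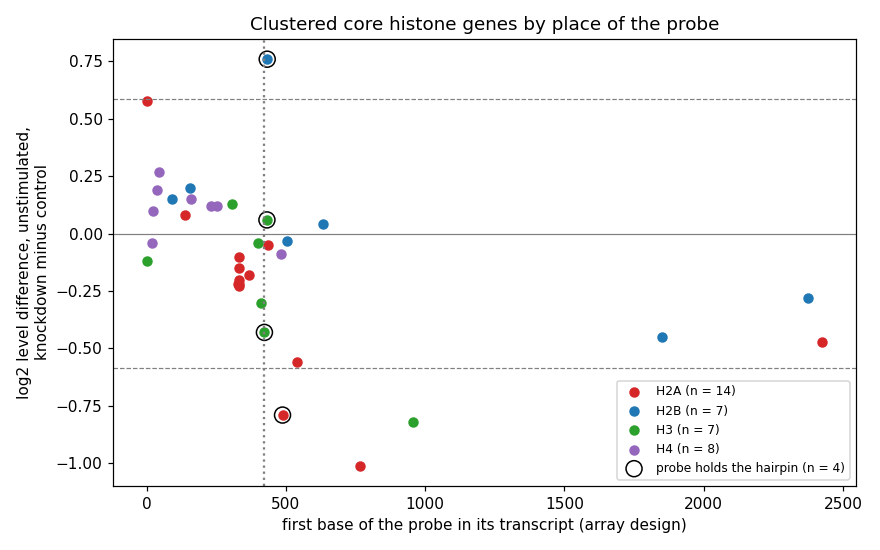
Log2 level difference in unstimulated cells, knockdown minus control, of the 36 measured clustered core genes against the first base of their probe in its transcript. Colours are families, circled points are probes that hold the hairpin, the dotted line is base 420 and dashed lines mark 1.5-fold. The lowest points, Hist3h2a at -1.01, Hist2h3c2-ps at -0.82 and Hist2h2aa1 at -0.79, all lie to the right of the dotted line, which was drawn after the values were seen.

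The late probes were not alike. Those that reach only to the hairpin gave -0.05 for Hist1h2ab, 0.06 for Hist1h3g, -0.43 for Hist1h3i and 0.76 for Hist2h2bb. Both that lie mostly beyond it gave -0.79 for Hist2h2aa1 and -0.56 for Hist1h2ae. Probes starting further down gave -1.01 for Hist3h2a (base 767), -0.82 for Hist2h3c2-ps (base 957), -0.45 for Hist2h2be (base 1849), -0.28 for Hist1h2be (base 2375) and -0.47 for Hist1h2ac (base 2426). Hist1h2bc at base 632 gave 0.04, Hist1h2bp at base 505 -0.03 and Hist1h4i at base 483 -0.09. Hist1h2ab, Hist1h2ac, Hist1h2be, Hist1h2bp, Hist1h4i and Hist2h2be are named here for the place of their probe, after their values were seen. Many of the late probes are dim: with a signal of 100 or more in every channel, 7 of the 14 remained, 6 of them below 0, with a median of -0.28. The early probes then had a median of -0.07, with 11 of 18 below 0, which turns to 0.12, with 4 of 11 below 0, without the linked H2A genes. Past the lower limit were 3 of the 14 late genes and 0 of the 22 early ones, against 5.06% of all genes. The split was drawn with the low values of those 3 genes known, so this count is no support for it. Those 3 are among the 7 brighter late genes. None of the 7 dimmer late genes was lower past the limit, against 10.2% of all genes with a signal under 100. After normexp (offset 50) with loess the median of the 14 was -0.16 and that of the early probes 0.02. With a floor of 50 under every signal the late and early medians were both -0.02, but several late genes, such as Hist1h2ac, Hist1h2bp and Hist2h2be, have every signal under 50 and are set to 0 by that setting.

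Hist2h2bb was 1.69-fold higher in unstimulated THOC5-depleted cells and 1.97-fold higher after serum, from signals of 19.5 and 19.1 on the control array and 29.7 and 33.9 on the knockdown array. After normexp (offset 50) with loess the differences were 0.30 and 0.35, inside the limit of 1.5-fold, and with a floor of 50 they were 0.00, since every signal lies under it. Among the clustered core genes, the next highest unstimulated differences were 0.58 for Hist1h2al and 0.27 for Hist1h4d. After serum those of the core genes were 0.43 for Hist1h2bc and 0.34 for Hist1h2bm, and the lowest core values were -0.38 for Hist3h2a, -0.37 for Hist1h2ae and -0.35 for Hist2h3c2-ps.

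Among the brightest core genes of each family in each cluster, Hist3h2a and Hist2h2bb were past the limit, with the values given above, and Hist1h2bc differed by 0.04 and 0.43. Of the other measured ones, Hist1h2ah gave -0.22 and 0.15, Hist2h2ac -0.23 and 0.18, Hist1h3d 0.13 and 0.14, Hist2h3c1 -0.04 and -0.05, Hist1h4k 0.12 and 0.10, Hist2h4 0.12 and 0.01, and Hist4h4 0.15 and 0.07. The H4 genes as a whole had medians of 0.12 and 0.07.

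Linker genes differed in both directions. Hist1h1d gave signals of 95.7 and 93.0 on the control array and 2.4 and 2.7 on the knockdown array, where it was not well above background. Its level was at least 7.53-fold lower in unstimulated THOC5-depleted cells and at least 6.91-fold lower after serum, measured against the lowest signal above background. Its probe starts at base 2886 of its transcript, and it was a single spot on each array. H1f0 had 0.618 times its control level in unstimulated cells and 0.827 times after serum, from 108.3 and 83.4 on the control array and 59.4 and 61.2 on the knockdown array; after normexp with loess the unstimulated difference was -0.51, inside the limit. Hist1h1e differed the other way, by 0.28 and 0.59, which is just past the limit after serum. Hist1h1b gave 0.30 and 0.39, Hist1h1a 0.41 and -0.08, Hist1h1c -0.36 and 0.30, H1fx -0.33 and -0.26, and H1foo 0.24 and 0.27.

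Of the other genes above background in some channels, H2afb2-ps had signals of 7.8 and 3.2 on the control array and 64.7 and 61.1 on the knockdown array. It was at least 6.46-fold higher in unstimulated THOC5-depleted cells and at least 4.87-fold higher after serum. The bounds for Hist1h2bg, Hist1h3a, Hist1h1t and H1fnt lay between 1.10-fold and 1.70-fold. Hist1h2bb, Hist2h2ab, Hist3h2ba, Hist3h2bb-ps and H2afb1 were at background throughout, and nothing can be said of them.

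Genes that make and handle histones were read from lists. Of 18 measured genes for the 3′ end processing and transcription of histone RNA, 0 were past 1.5-fold on the serum ratio of either array, against 1.06% to 6.22% of all genes in each direction. Between the arrays 1 of 18 was lower in unstimulated cells, and 1 was lower and 1 higher after serum, which is near the 5.06%, 5.36% and 5.92% of all genes. Cpsf2 encodes CPSF100 of the cleavage complex, and gave signals of 2118 and 2455 on the control array and 979.3 and 1250 on the knockdown array. It was the lower gene in both channels, with differences of -0.81 and -0.68. Cpsf3, which encodes the nuclease CPSF73, gave 0.05 and -0.06, and Slbp, which encodes the stem-loop binding protein, gave -0.03 and -0.17. Casp8ap2, another gene of this list, was the higher gene after serum at 0.66, beside 0.52 unstimulated. Npat, the cyclin E-Cdk2 target that activates histone genes, was not above background in all channels.

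Of 22 measured histone chaperones, 2 were higher past the limit in unstimulated THOC5-depleted cells and 0 lower, against 4.64% and 5.06% of all genes. After serum 0 were past it in level, against 5.92% and 5.36%. On the serum ratio 1 was lower on each array, against 5.49% and 1.06%, and 0 were higher. Anp32e, which removes H2A.Z from chromatin, was higher by 0.96 in unstimulated THOC5-depleted cells and by 0.27 after serum. Nap1l1, a carrier of H2A and H2B, was higher by 0.60 and 0.58, which is past the limit in unstimulated cells only. Asf1a, a carrier of H3 and H4, was lower after serum on both arrays, with ratios of -0.75 and -0.66 from signals of 27.3 to 71.1. Of 29 genes of S phase and proliferation, 0 were past 1.5-fold in any of the 4 comparisons, against the 1.06% to 6.22% of all genes in each direction that are given above. Their median serum ratio was -0.01 on the control array and -0.18 on the knockdown array, and their median level difference was 0.18 in unstimulated cells and -0.02 after serum.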

How the data were processed

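RNA of 1 MEF line was measured on 2 dual-color Agilent arrays, 1 per condition. The authors deposited the scanner output (Agilent Feature Extraction 10.7.3.1, per the submitters' processing notes), whose processed signals are intensity values after background subtraction and dye normalization within each array. The authors also deposited a table of the size of the log10 ratio without its sign, and this entered as 1 of the alternatives once signs had been restored from the scanner output. Columns not mapped to a sample numbered 0.

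Spots marked as outliers were dropped (239 for control and 234 for knockdown), the other spots of a probe were averaged on the log2 scale, and the brightest probe stood for its gene. Percentages of genes past a limit refer to the 17199 genes well above background in the 4 channels. Serum ratios are Cy5 over Cy3 processed signals. Levels were scaled between arrays with limma 3.58.1 (Aquantile, R 4.3.3); Python 3.11.15 did the rest. The scaling was tested on simulated data. A gene counted as different at 1.5-fold or more. Bounds were taken against the lowest level well above background in that channel or, where higher, the dim gene's own level.

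Named genes were all variant and linker genes, the brightest core gene of each family in each cluster, the 3 highest and 3 lowest core genes in each comparison, and genes past 1.5-fold in the lists of histone RNA processing, chaperones and S phase. The members and lists were chosen with earlier results of these data known. Alternatives were normexp (offset 50) with loess, the median over probes, detection in any channel, a floor of 50, scaling at the 75th percentile, the deposited table, and limits of 1.3 and 2. Linked probes counted once, a signal of 100 or more, no testis-type genes and the split at base 420 were added after the data were seen. Precision is limited by the number of arrays.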

Additional observations from a re-analysis of the deposited data

Results flagged for a closer look

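For 6 histone genes the serum ratio had opposite signs on the 2 arrays, each at least 0.1 in size, with 1 array per condition and no test of the difference. The same holds for 8.84% of the 17199 genes, against 6 of 53 here. The log2 ratio was 0.15 on the control array and -0.13 on the knockdown array for H2afz, -0.12 and 0.55 for Hist1h1c, -0.20 and 0.29 for Hist1h2ac, -0.32 and 0.26 for Hist2h2aa1, -0.44 and 0.23 for Hist2h2be, and -0.31 and 0.17 for Hist2h3c2-ps. Hist1h2ac and Hist2h2be had signals between 15.6 and 27.2. Spike-in probes differed by 0.24 between the arrays in the direction of the other 5 genes, opposite to H2afz, and the part of this in the signs was not tested.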

How the results depend on the processing

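Several medians near 0 moved, and some changed sign. For the 40 clustered genes, normexp with loess gave 0.01 for the serum ratio of the control array and 0.06 for the level difference after serum. A floor of 50 gave 0.00 for the serum ratio of the knockdown array, 0.00 for the unstimulated level difference and 0.07 for that after serum. Scaling at the 75th percentile gave level differences of 0.00 and 0.17. With both sets of linked probes (H2A, and Hist1h3c with Hist1h3f) counted once, 33 values remained, and the medians were 0.08 for the knockdown serum ratio and 0.04 and 0.07 for the level differences. With signals of 100 or more the unstimulated difference was -0.10. For the 13 variant genes, the median over probes gave serum ratios of -0.06 and -0.02 and a level difference of -0.10 after serum. Normexp gave a knockdown serum ratio of -0.02. Detection in any channel and the 75th percentile gave unstimulated differences of -0.08 and -0.09. The causes of these shifts were not tested. With a limit of 1.3-fold in place of 1.5-fold, 12, 4, 12 and 5 histone genes were past it (serum ratio of the control and knockdown arrays, then unstimulated and serum levels), in place of 2, 0, 6 and 3, beside 23.4%, 11%, 20.9% and 23.3% of all genes. With a limit of 2-fold, 0, 0, 1 and 0 of 53 were, beside 3.95%, 0.977%, 2.68% and 3.23%. Over 11 single values past 1.5-fold and 31 alternatives to them, 0 changed sign and 6 fell under the limit: H1f0 under normexp (-0.51) and the 75th percentile (-0.58), and Hist2h2bb in both channels under normexp (0.30 and 0.35) and the floor (0.00). No paired analysis was possible because each condition has 1 array. Signals near background, as of Hist2h2bb, limit what can be said of dim genes.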
